A study of Arabidopsis thaliana with 4 samples.

Results

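The TIR1/AFB auxin receptors were followed in 14-day-old Arabidopsis thaliana seedlings of the mutant tho2-8 and of its background line Col-LUC. The family was taken as 6 gene loci, TIR1 (AT3G62980), AFB1 (AT4G03190), AFB2 (AT3G26810), AFB3 (AT1G12820), AFB4 (AT4G24390) and AFB5 (AT5G49980). They were picked by locus identifier and not by a rule on measured values. Earlier results of these data were known when this choice was made. All 6 were among the 37869 loci of the deposited tables and among the 20971 genes with enough counts to test. Whole plants were grown on soil in 16 h of light, and messenger RNA was sequenced from 2 libraries of each genotype. The THO2 protein belongs to the THO complex, which couples transcription to mRNA packaging and export, and mutants of this complex are known for altered microRNA levels. The genotype label reads Col-LUC for all 4 libraries, so the groups were read from the titles. The sources used here do not say what the tho2-8 allele or the LUC component is.

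TIR1 and the AFB proteins are F-box proteins, the substrate-binding subunits of SCF ubiquitin ligases. Auxin sits between the receptor and an Aux/IAA repressor and holds them together, and the ubiquitinated repressor is then degraded, which frees the auxin response factors (ARFs) to act on their target genes. The microRNA miR393 pairs with TIR1, AFB2 and AFB3 messages and directs their cleavage, and so limits how much receptor a cell makes. AFB1 acts mainly in rapid, non-transcriptional root responses, and AFB4 and AFB5 form a separate clade through which picloram-type herbicides act.

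The miR393 site was read from the annotated transcripts to show which messages carry it. The 5p strands of both miR393 genes, MIR393a on chromosome 2 and MIR393b on chromosome 3, are identical over 22 bases. Their seed, bases 2 to 8, is in capitals. In the receptor messages, capitals mark bases that form no Watson-Crick pair with miR393 in an antiparallel duplex, and every site is given 5′ to 3′ on the sense strand of the message as DNA.
miR393a-5p and miR393b-5p: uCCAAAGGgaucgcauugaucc
TIR1 site: gAGAcaatgcgatccctttgga
AFB1 site: gAGAcCatgcgatccctttgga
AFB2 site: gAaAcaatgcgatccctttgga
AFB3 site: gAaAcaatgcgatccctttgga
AFB4 aligned window: TCCAATatgAgGtTTGtttggT
AFB5 aligned window: TACAACatgAgGtTTGtttgga

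The AFB2 and AFB3 sites were identical and left 2 of 22 bases without a Watson-Crick pair, at positions 19 and 21 from the 5′ end of miR393. TIR1 had the same 2 mismatches and a G:U pair at position 20. AFB1 differed from TIR1 by 1 base, a further mismatch at position 17. In these 4 messages positions 1 to 16 were fully paired. In the windows of AFB4 and AFB5 that align with the TIR1 site by their proteins, 12 and 11 bases were not complementary, 3 of them G:U pairs in each. No other window of AFB4 or AFB5 came closer than 7 and 8 such bases. The map of paired positions shows this break between the clades.

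**Figure D1:**
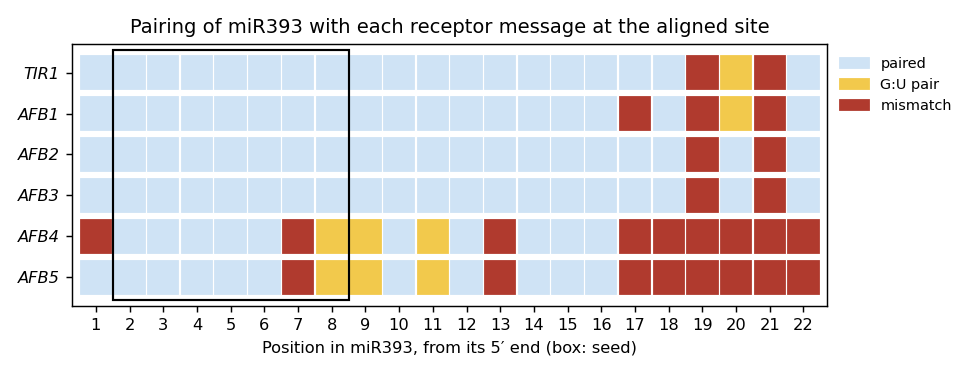
Each row is a receptor message and each column a position of miR393 counted from its 5′ end, coloured as paired, G:U pair or mismatch at the site (TIR1, AFB1, AFB2, AFB3) or at the window aligned with it (AFB4, AFB5). Unpaired positions lie at 17 to 21 in TIR1, AFB1, AFB2 and AFB3, while AFB4 and AFB5 also lack Watson-Crick pairs at positions 7, 8, 9, 11 and 13.

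All 4 sites lay in coding sequence, in the last exon of the message. In the TAIR10.1 assembly the TIR1 site spans 23273727 to 23273748 on the minus strand of chromosome 3, in exon 3, and the AFB1 site 1405341 to 1405362 on the minus strand of chromosome 4, in exon 3. The AFB2 site spans 9870237 to 9870258 on the plus strand of chromosome 3, in exon 3, and the AFB3 site 4369085 to 4369106 on the minus strand of chromosome 1, in exon 4. The proteins run from 575 residues in AFB2 to 623 in AFB4. AFB2 and AFB3 share 86.4% of aligned residues and AFB4 and AFB5 share 79.3%, TIR1 shares 69.6% with AFB1 and 61.4% with AFB2, and TIR1 and AFB4 share 49.0%. Reads could still be told apart: no 32-base stretch of the TIR1, AFB1, AFB2 or AFB3 exons occurs elsewhere in the nuclear genome, and only 7 such stretches in AFB4 and 7 in AFB5 do.

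Totals ran from 17119534 to 17877941 counts per library. A count of 3 corresponds to 0.168 to 0.175 counts per 1000000 counts (CPM), a floor that covers counting error only. Every receptor had at least 415 counts in each library. In 4 of 12 pairs of gene and genotype the SD between replicates was below the counting SD, taken as the square root of the count: TIR1 and AFB3 in tho2-8, and AFB2 and AFB4 in Col-LUC. There the SD between replicates is smaller than counting error alone gives on average, and understates the error. Of 13 root markers tested, 5 had both tho2-8 libraries below both Col-LUC libraries and 0 the reverse, where 22.8% and 25.7% of all tested genes lay below and above. With the Col-LUC mean set to 0, their mean log2 level was 0.43 and -0.43 in Col-LUC and -0.46 and -0.73 in tho2-8, so Col-LUC replicate 2 lay close to tho2-8 replicate 1. Their summed level was 3980 and 2709 CPM in Col-LUC and 2018 and 2453 CPM in tho2-8 and none was at 0 in all libraries. Nearly all of that sum is PYK10, a root glucosidase gene, at 3884 and 2658 against 1968 and 2416 CPM. edgeR's adjusted test called 0 of the markers. At an unadjusted p under 0.05 it gave 3 lower and 0 higher, against 7.18% and 8.40% of all tested genes. DESeq2 called 1.37% of the genes it tested as lower, among them CASP1, an endodermis gene (26.0 and 14.1 against 10.8 and 5.11 CPM). In whole seedlings, fewer cells of a type and less RNA per cell cannot be told apart. On the same log2 scale the 6 leaf and shoot markers gave -0.16 and 0.16 in Col-LUC, then 0.30 and 0.09 in tho2-8, with 2 of them higher in tho2-8 and 0 lower by that unadjusted test. The 7 floral organ markers gave -0.99 and 0.99, then -0.04 and -0.66, with 0 higher and 1 lower. The part of any of these differences in the receptor levels was not tested.

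The comparison of tho2-8 with Col-LUC asked whether a THO mutant has other receptor message levels than its parent line. AFB3 showed the widest difference of the family: its message stood 1.76-fold higher in tho2-8, and DESeq2 called it while edgeR did not. TIR1 stood 1.44-fold higher, and AFB5, AFB4 and AFB2 1.29-fold, 1.26-fold and 1.15-fold higher. AFB1 alone had a lower mean in tho2-8, at 0.897-fold. With p-values adjusted over all genes, edgeR's quasi-likelihood test called 0 of the 6, with 0.00954% of all tested genes called. At an unadjusted p under 0.05 it gave 2 of the 6 as higher and 0 as lower, where 8.40% and 7.18% of all tested genes were higher and lower. DESeq2 called 1 of 6 higher and 0 lower, where 1.28% and 1.37% of the genes it tested were called.

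**Figure D2:**
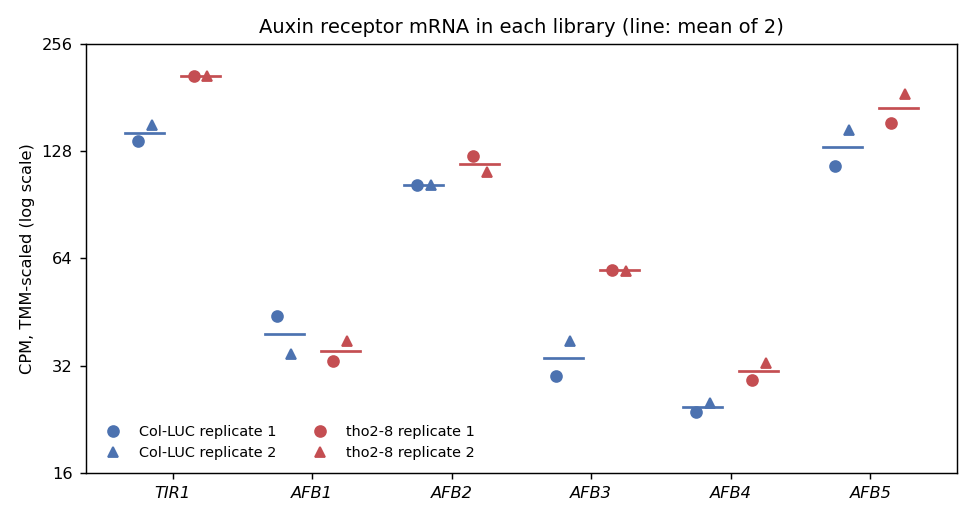
Points give CPM in each library on a log axis, blue for Col-LUC and red for tho2-8, with circles for replicate 1, triangles for replicate 2 and a line at the mean of 2 libraries. Both red points lie above both blue points for every gene but AFB1.

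The miR393-paired receptors come first. AFB3, which also takes part in root responses to nitrate, measured 29.9 and 37.4 CPM in Col-LUC against 59.5 and 59.0 CPM in tho2-8. The groups lay 21.6 CPM apart, against 7.51 CPM between the Col-LUC and 0.501 CPM between the tho2-8 libraries, the latter within a counting SD of 1.81 CPM. The means were 33.7 ± 5.31 and 59.3 ± 0.35 CPM (SD, n = 2). The log2 fold change of AFB3 was 0.82 ± 0.16 (SE), with a 95% interval of 1.35-fold to 2.30-fold. The adjusted p was 0.131 by edgeR and 0.0301 by DESeq2, and 1.22% of tested genes had a smaller p by edgeR. Without 1 library DESeq2 no longer called AFB3: the adjusted p was 0.828 and 0.138 without Col-LUC replicates 1 and 2, and 0.323 and 0.612 without tho2-8 replicates 1 and 2. With 1 library left out, the log2 fold change by DESeq2 was 0.65 to 0.97.

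TIR1, the receptor by which the pathway was first defined, measured 137 and 152 CPM in Col-LUC against 207.9 and 207.6 CPM in tho2-8. The groups lay 55.8 CPM apart, and the tho2-8 libraries were again within their counting SD, 3.39 CPM. The means were 144 ± 10.7 and 208 ± 0.244 CPM (SD, n = 2). For TIR1 the change was 0.53 ± 0.16 (log2, SE), with a 95% interval of 1.11-fold to 1.88-fold. The adjusted p was 0.22 by edgeR and 0.17 by DESeq2, so neither called it, and the unadjusted p by edgeR's quasi-likelihood test was 0.014. AFB2, whose site is the same as that of AFB3 base for base, measured 103.2 and 102.8 CPM in Col-LUC against 124 and 112 CPM in tho2-8. The groups were apart by 8.64 CPM, less than the 12.5 CPM between the tho2-8 libraries. Its log2 fold change was 0.20 ± 0.15 (SE), with a 95% interval from 0.896-fold to 1.47-fold and an adjusted p of 0.564 by edgeR. Without tho2-8 replicate 1 it was 0.09.

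AFB1, in which the site has an extra mismatch, measured 44.1 and 34.4 CPM in Col-LUC against 33.0 and 37.5 CPM in tho2-8. The groups overlapped, with the highest value in Col-LUC replicate 1 and the next in tho2-8 replicate 2. The mean log2 level of root markers was highest in the first of these libraries and lowest in the second. Their summed CPM, mostly PYK10, was also highest in Col-LUC replicate 1. It was lowest in tho2-8 replicate 1, where AFB1 was lowest too. Any relation was not tested. Its log2 fold change was -0.16 ± 0.18 (SE; adjusted p = 0.716 by edgeR), and without Col-LUC replicate 1 it was 0.03.

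By point estimate, the log2 fold changes of the receptors without the site lay below AFB3 and TIR1 and above AFB2 and AFB1. The 95% intervals of AFB5 and AFB4 overlapped those of every receptor with the site, so this order is not resolved. Any relation of the changes to the site was not tested. AFB5, the main picloram receptor, measured 116 and 147 CPM in Col-LUC against 153 and 186 CPM in tho2-8. Its groups did not overlap but lay 6.4 CPM apart, against 30.9 and 32.4 CPM between replicates. The change was 0.37 ± 0.19 (log2, SE), at an adjusted p of 0.407 by edgeR. Leaving out Col-LUC replicate 1 gave 0.21 and leaving out Col-LUC replicate 2 gave 0.55. With tho2-8 replicate 2 left out it was 0.23. AFB4, the other member of that clade, measured 23.8 and 25.2 against 29.2 and 32.5 CPM. Its groups lay 4.03 CPM apart. The change was 0.33 ± 0.16 (log2, SE), at an adjusted p of 0.37 by edgeR. The 95% intervals of AFB5 and AFB4 ran from 0.940-fold to 1.77-fold and from 0.970-fold to 1.64-fold.

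In 5 of the 6 genes both tho2-8 libraries lay above both Col-LUC libraries and in 0 below, against 25.7% and 22.8% of all tested genes. The median log2 fold change of the 6 was 0.35, and that of all tested genes 0.01. The plot of fold changes sets these values beside other tests, scalings and sets of libraries.

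**Figure D3:**
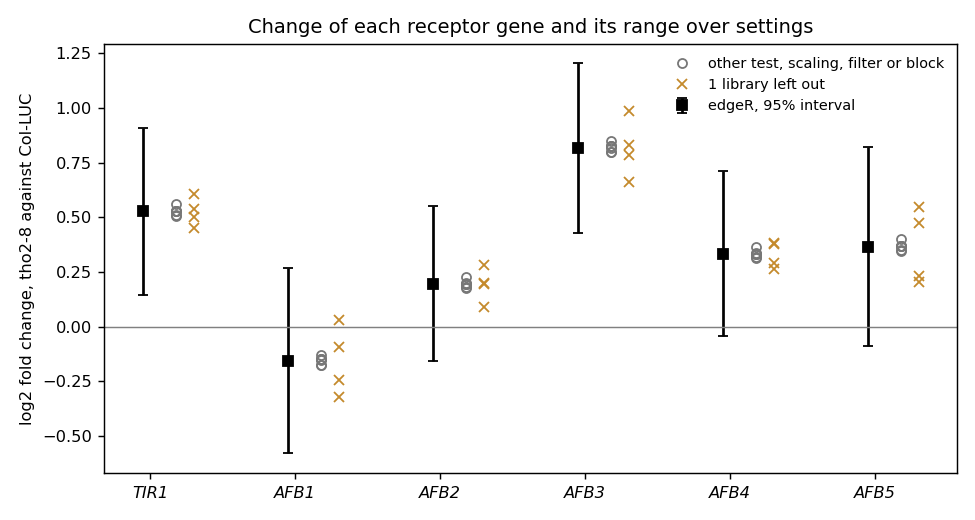
Black squares give the log2 fold change by edgeR with its 95% interval, open circles the value under another test, scaling, filter or block, and crosses the value with 1 library left out. AFB3 stayed between 0.66 and 0.99 over those settings, and AFB1 crossed 0.

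Ratios of 2 receptors within a library do not depend on the scaling between libraries. The ratio of AFB2 to AFB3, both as CPM per kilobase of exon, was 2.82 and 2.24 in Col-LUC and 1.71 and 1.55 in tho2-8. The ratio of TIR1 to AFB3 was 3.85 and 3.42 in Col-LUC and 2.95 and 2.97 in tho2-8. The ratio of AFB1 to AFB3 was 1.42 and 0.884 in Col-LUC and 0.533 and 0.610 in tho2-8. In each case the genotypes did not overlap, nor did they for AFB3 to AFB4 or AFB3 to AFB5. Among ratios without AFB3, they also did not overlap for TIR1 to AFB1, AFB2 or AFB4, or for AFB1 to AFB4 or AFB5. They overlapped for TIR1 to AFB5, AFB1 to AFB2, and AFB2 to AFB4 or AFB5. The ratio of AFB4 to AFB5 was 0.177 and 0.148 in Col-LUC and 0.165 and 0.151 in tho2-8, and there the genotypes overlapped. The ratios reuse the same 6 genes, and all those with AFB3 share its values, so they are not separate results. How often ratios of other gene pairs separate was not counted. An exact two-sided permutation test of 2 against 2 libraries cannot give a p below 0.333, so these ratios are a description.

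Levels of different receptors were compared per length. In Col-LUC, mean levels in CPM per kilobase of annotated exon were 54.4 for TIR1, 52.2 for AFB5, 37.6 for AFB2, 16.9 for AFB1, 15.1 for AFB3 and 8.40 for AFB4. TIR1 and AFB5 overlapped between the Col-LUC libraries, as did AFB1 and AFB3. The other neighbours in that order did not overlap. In tho2-8 the order was 78.5 for TIR1, 67.2 for AFB5, 43.2 for AFB2, 26.5 for AFB3, 15.2 for AFB1 and 10.6 for AFB4, and no neighbours overlapped. By annotated exon length, AFB3 and AFB1 thus stood in the opposite order in the 2 genotypes by their means. By exon outside other genes, described below, the AFB3 mean was the higher in both genotypes.

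**Figure D4:**
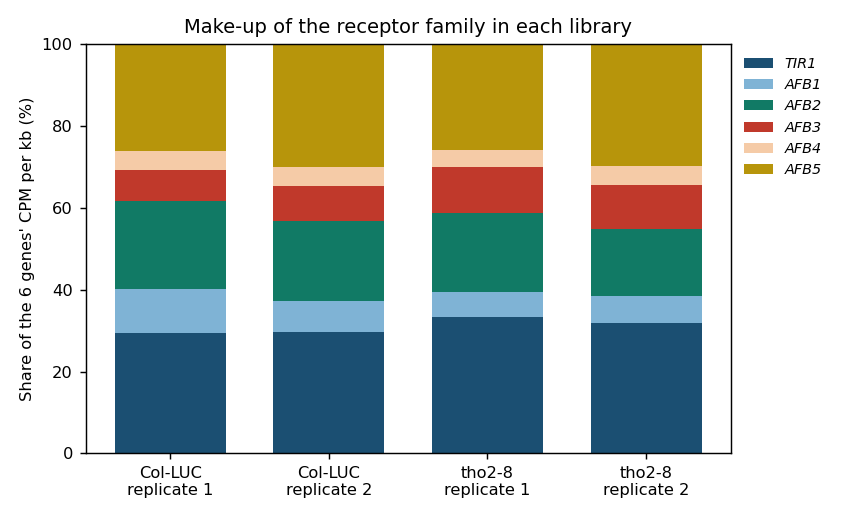
Stacked bars give the share of each gene in the summed CPM per kilobase of the 6 receptor genes, for each library. The AFB3 share is 7.62% and 8.67% in Col-LUC and 11.3% and 10.7% in tho2-8, and the AFB4 share stays between 4.25% and 4.64%.

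The summed level of the family was 176 and 193 CPM per kilobase in Col-LUC and 236 and 247 in tho2-8. TIR1 made up 29.3% and 29.6% of it in Col-LUC and 33.3% and 31.8% in tho2-8. AFB1 made up 10.8% and 7.66% in Col-LUC and 6.02% and 6.54% in tho2-8. TIR1, AFB2 and AFB3 together held 58.4% and 57.7% in Col-LUC and 63.9% and 59.1% in tho2-8. Shares in 1 library sum to a whole, so a rise of 1 gene lowers the shares of the others.

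Overlapping genes bear on AFB3, AFB1 and AFB4. An antisense long non-coding RNA gene, AT1G04977, covers 638 bases of AFB3 exon, and another, AT4G04455, covers 423 bases of AFB1 exon, and both stretches include the miR393 site. Both loci are listed at 0 in every library. This holds for all 475 non-coding loci that lie wholly inside exons of a coding gene on the other strand, while 484 of 2101 long non-coding RNA loci free of coding exons had counts. Whether reads from such stretches were given to AFB3 and AFB1 is not stated in the sources used here. Divided by exon outside other genes only, 1533 bases for AFB3 and 1850 for AFB1, their Col-LUC means were 21.97 and 21.2 CPM per kilobase, so the order of this pair in Col-LUC depends on the length used. In tho2-8 those means were 38.7 for AFB3 and 19.0 for AFB1, beside 43.2 for AFB2. By that length the AFB3 share of the family was 10.3% and 11.8% in Col-LUC and 15.3% and 14.5% in tho2-8. At its 3′ end AFB3 also shares 63 bases with AT1G12810, a proline-rich family protein gene on the other strand. AT1G12810 measured 32.2 and 35.8 CPM in Col-LUC against 21.5 and 21.2 CPM in tho2-8, opposite in direction to AFB3, with a log2 fold change of -0.67 ± 0.16 (SE) and an adjusted p of 0.161 by edgeR. AT4G03180, which shares 51 bases with AFB1, stood at 16.9, 13.6, 14.8 and 18.8 CPM over the Col-LUC and tho2-8 libraries. AT4G24380, which shares 515 bases of exon with AFB4, stood between 5.50 and 8.58 CPM.

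To mark Aux/IAA repressors for degradation, the receptors work as part of an SCF ligase. In this and the next lists, named genes are among those with the smallest p by edgeR, unless said otherwise. Of 13 tested genes of the ligase and its regulators, 8 had both tho2-8 libraries below both Col-LUC libraries and 1 had them above. Of all tested genes, 22.8% lay below and 25.7% above. The median log2 fold change of the list was -0.15. edgeR's adjusted test and DESeq2 called 0 of them. At an unadjusted p under 0.05 edgeR gave 1 higher and 2 lower, against 8.40% and 7.18% of all tested genes. AXR1, a subunit of the enzyme that activates the ubiquitin-like modifier RUB, measured 51.1 and 48.7 CPM in Col-LUC against 35.4 and 35.1 CPM in tho2-8. RCE1, the RUB-conjugating enzyme, measured 98.3 and 109 CPM in Col-LUC against 69.2 and 74.7 CPM in tho2-8. AXL, a close relative of AXR1, measured 12.0 and 8.74 against 19.2 and 19.5 CPM, higher in tho2-8. The adaptor ASK1, which ties the receptor to the cullin, measured 215 and 210 against 183 and 180 CPM.

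Among 26 tested Aux/IAA co-receptor genes the median log2 fold change was 0.09, with 3 separated upward and 6 downward. Over all tested genes, 25.7% were separated upward and 22.8% downward. edgeR's adjusted test and DESeq2 called 0 of the Aux/IAA genes. At an unadjusted p under 0.05 edgeR gave 2 higher and 1 lower, against 8.40% and 7.18% of all tested genes. IAA1 measured 17.1 and 14.6 CPM in Col-LUC against 20.9 and 27.7 CPM in tho2-8. IAA2 measured 94.9 and 99.4 against 123 and 128 CPM. IAA17 measured 47.2 and 33.2 against 26.2 and 27.9 CPM, and IAA9 measured 426 and 370 against 251 and 321 CPM. IAA1 and IAA2 were thus separated upward, and IAA17 and IAA9 downward. Of the 18 tested GH3 and SAUR genes, quick targets of auxin, 3 were separated upward and 4 downward, with a median of -0.07. In that list SAUR14 was the only gene at an unadjusted p under 0.05 by edgeR (23.6 and 28.0 CPM against 41.0 and 32.5 CPM), and edgeR's adjusted test and DESeq2 called 0. GH3.6, an enzyme that conjugates auxin to amino acids, measured 52.1 and 53.4 CPM in Col-LUC against 19.8 and 44.1 CPM in tho2-8.

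Of the 15 ARF genes, 10 were separated upward and 1 downward, with a median log2 fold change of 0.26. Across all tested genes, 25.7% were separated upward and 22.8% downward. edgeR's adjusted test called 0 of the ARF genes. At an unadjusted p under 0.05 it gave 6 higher and 0 lower, against 8.40% and 7.18% of all tested genes. DESeq2 called 1.28% of the genes it tested as higher, among them ARF9. ARF9 measured 68.2 and 61.7 CPM in Col-LUC against 108 and 135 CPM in tho2-8 (log2 fold change 0.90 ± 0.17, SE; adjusted p = 0.128 by edgeR and 0.00462 by DESeq2). ARF18 measured 24.3 and 29.9 against 48.1 and 44.9 CPM, ARF11 measured 20.1 and 28.6 against 46.7 and 41.6 CPM, and ARF8, a target of miR167, 87.8 and 81.8 against 121 and 129 CPM. In each of these 4 genes both tho2-8 libraries lay above both Col-LUC libraries, and edgeR's adjusted p was 0.128 to 0.183. These 4 were named for the smallest p of the list, so their separation is no further result.

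The 14 tested auxin transport genes had a median of 0.14, with 5 separated upward and 0 downward. The shares over all tested genes were 25.7% upward and 22.8% downward. PIN5, an endoplasmic reticulum transporter, had the smallest p of that list, at 4.76 and 4.25 CPM in Col-LUC and 9.06 and 12.1 CPM in tho2-8 (adjusted p = 0.158 by edgeR). The root efflux carrier PIN2 measured 50.4 and 20.7 against 28.0 and 18.03 CPM, and its genotypes overlapped. The 9 tested synthesis genes had a median of -0.14, with 3 separated upward and 2 downward and 0 at an unadjusted p under 0.05. TAA1, which makes the indole-3-pyruvate precursor of auxin, measured 11.1 and 10.98 CPM in Col-LUC against 10.1 and 6.43 CPM in tho2-8. In both lists edgeR's adjusted test and DESeq2 called 0.

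Among F-box genes of other hormones 6 were tested. Their median was 0.47 on the log2 scale, with 4 separated upward and 0 downward, against 25.7% and 22.8% of all tested genes. At an unadjusted p under 0.05 edgeR gave 3 higher, against 8.40% of all tested genes, and its adjusted test called 0. DESeq2 called 1.28% of the genes it tested as higher, among them MAX2. MAX2, the F-box protein of strigolactone signalling, measured 34.9 and 43.3 CPM in Col-LUC against 62.3 and 78.8 CPM in tho2-8, with an adjusted p of 0.144 by edgeR and 0.0248 by DESeq2. EBF2, which removes the ethylene factor EIN3, measured 101 and 131 against 170 and 216 CPM. EBF1, which has the same role, measured 181 and 190 against 240 and 280 CPM. COI1, the jasmonate receptor and a close relative of the family, is named outside the rule for named genes. It measured 56.3 and 66.2 CPM in Col-LUC against 65.6 and 65.9 CPM in tho2-8, and its genotypes overlapped. The plot of pathway lists shows each gene against the spread of all tested genes.

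**Figure D5:**
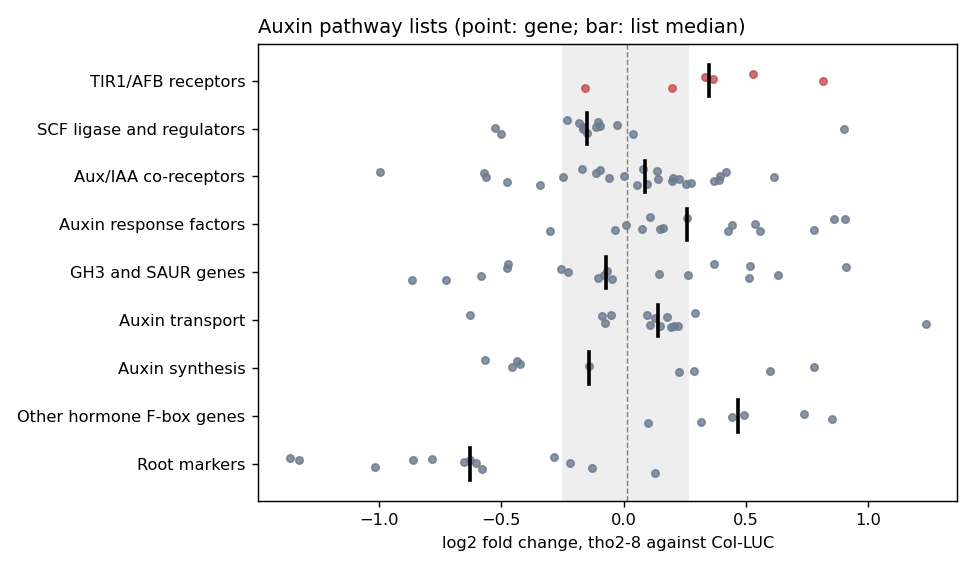
Each point is the log2 fold change of 1 gene, grouped by list, with a bar at the list median. The grey band covers the middle quartiles of all tested genes, -0.25 to 0.26, with a dashed line at their median, and the receptor and other F-box medians lie above the band.

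AT3G23690, a basic helix-loop-helix gene, has another message with a miR393-like window and is also named outside the rule. It left 4 of 22 bases without a Watson-Crick pair, 2 of them G:U pairs. It measured 66.2 and 61.2 CPM in Col-LUC against 59.0 and 68.1 CPM in tho2-8, with a log2 fold change of 0.00 ± 0.15 (SE). The levels of MIR393a and MIR393b are not analysed here.

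The genes with profiles nearest to each receptor were sought among 18818 genes with a mean of at least 1 log2 CPM. Likeness was the Euclidean distance of centred log2 CPM over the 4 libraries. The nearest to AFB3 were the microtubule motor gene KICP-02 (distance 0.042), DUF5 (0.058) and AT1G73970 (0.058). Nearest to TIR1 were the tetratricopeptide repeat gene AT5G39980 (0.014), the translin family gene AT2G03780 (0.019) and AT2G28240 (0.023). AFB2 lay nearest to AT1G52380, annotated as a NUP50 protein (0.0098), ELF6 (0.015) and NAD-ME2 (0.016). AFB4 lay nearest to NRPD2A (0.0081), ING1 (0.020) and AT5G66770 (0.023). AFB5 lay nearest to TRFL10 (0.020), AT3G44610 (0.034) and AT1G70518 (0.041), and AFB1 to AT3G57380 (0.017), TOM22-V (0.022) and AT1G68650 (0.027). With 4 libraries many genes share a profile, so these distances are a description.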

How the data were processed

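Each library came as a table of estimated counts, which the authors deposited unscaled. The submitters' processing notes name HISAT2 2.1.0, Trimmomatic, DESeq2 1.24.0 and featureCounts 1.6.3, and TAIR10 as build. How strand and shared reads were treated is not stated there. About 2.1% of loci held fractional values, none of them a receptor, and all values were rounded to whole numbers. Nothing in the labels ties replicates to separate plants, so a p-value here reflects only how these libraries vary, possibly for technical reasons.

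The 4 libraries were grouped by title. Genes passing filterByExpr were scaled by TMM and tested across all genes with edgeR 4.0.16 (glmQLFit, glmQLFTest) in R 4.3.3, with a Benjamini-Hochberg adjusted p under 0.05 as threshold. CPM is per 1000000 counts after that scaling. Standard errors come from the F statistic. DESeq2 1.42.0 and limma 3.58.1 were alternatives. The tests were tried on simulated data, of which no result is given here. Replicates differed beyond sampling noise (chi-square per gene 24.8 in Col-LUC and 22.6 in tho2-8). Positions and sequences come from NCBI RefSeq, TAIR10.1. Proteins deduced from coding sequence were aligned with Biopython 1.88. Of 149 list entries, 3 were dropped because the annotation does not pair symbol and locus: DAO1, DAO2 and a name for AT3G23690. Members, lists and the naming rule (the 6 receptors, up to 4 genes per list with the smallest p, 3 nearest profiles per receptor, overlapping genes) were chosen with earlier results of these data known. The aligned windows, the unshared exon length and the transcript scan were added later.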

Additional observations from a re-analysis of the deposited data

How the results depend on the processing

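The number of genes called over the whole table was unstable: edgeR called 2, DESeq2 560, limma-voom 1, edgeR without the filter on low counts 59, and edgeR with 1 library left out 0 to 710 (0 when either Col-LUC library was dropped, 710 when tho2-8 replicate 1 was, and 115 when tho2-8 replicate 2 was). In those fits the genotype with 1 library is assumed to vary like the other. Of the receptors, DESeq2 called 1, AFB3, and edgeR with the other scalings, without the filter, with the replicate block or with 1 library left out called 0. The numbers do not pair the libraries by any label, and same-numbered libraries deviated with a correlation of -0.12. With the replicate block edgeR called 2 genes and with the crossed pairing, chosen after seeing the data, 537, 1 of them a receptor. AFB1 turned to 0.033 without Col-LUC replicate 1, within -0.32 to 0.03 over the fits with 1 library left out. The other 5 receptors kept a positive log2 fold change in all 11 alternatives, with AFB2 at 0.09 to 0.28, AFB4 at 0.27 to 0.38 and AFB5 at 0.21 to 0.55. For AFB3 it ran from 0.66 to 0.99 with an adjusted p of 0.0301 to 0.389, and for TIR1 from 0.45 to 0.61 with 0.105 to 0.569. DESeq2 with 1 library left out, given above for AFB3, is not among these 11. Its log2 fold changes for AFB3 were 0.65 to 0.97. The causes were not tested.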

Other observations

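A scan of 58365 annotated transcripts for windows with at most 4 bases not complementary to miR393 found 8 genes. Beside TIR1, AFB1, AFB2, AFB3 and AT3G23690 these were CPL3 (AT2G33540), AT4G18596 and BRG1 (AT5G45100), which were named after their values were seen. The BRG1 window lies in the 3′ untranslated region (TAIR10.1 chromosome 5, plus strand, 18219970 to 18219991). It is shown because BRG1 was, with AFB3, called by DESeq2, so the choice rests on that result. Whether miR393 acts on BRG1 was not tested. Capitals mark bases without a Watson-Crick pair.
BRG1 window: gAatcaatgcgatcTctttgAC

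Its unpaired positions, 1, 2, 8 and 21 of miR393, include 2 in the seed, 1 of them a G:U pair, whereas the receptor sites have none there. BRG1 measured 37.9 and 32.8 CPM in Col-LUC against 55.8 and 78.1 CPM in tho2-8, with a log2 fold change of 0.92 ± 0.20 (SE) and an adjusted p of 0.143 by edgeR and 0.0159 by DESeq2. CPL3, with an unpaired base in the seed at position 3, measured 45.0 and 52.1 against 51.4 and 53.7 CPM. AT4G18596 had at most 1 count in any library. MEMB12, which the annotation names as a target of miR393b, was not found by this scan, which used the 5p strand only. It measured 6.08 and 7.91 CPM in Col-LUC against 5.20 and 7.09 CPM in tho2-8, and its genotypes overlapped.

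AFB3 is annotated as induced by nitrate in primary roots, so 4 nitrate genes were looked up after their values were seen. NRT1.1, the nitrate transporter and sensor, measured 321 and 301 CPM in Col-LUC against 207 and 138 CPM in tho2-8. The nitrate reductase gene NIA1 measured 610 and 651 against 369 and 265 CPM. NIR1, the nitrite reductase gene, measured 566 and 640 against 424 and 284 CPM. In these 3 genes both tho2-8 libraries lay below both Col-LUC libraries, as in 22.8% of all tested genes. DESeq2 called 1.37% of the genes it tested as lower. The adjusted p of NRT1.1, NIA1 and NIR1 was 0.191, 0.159 and 0.237 by edgeR, which called none, and 0.0143, 0.000667 and 0.0333 by DESeq2. The other nitrate reductase gene, NIA2, measured 3187 and 4532 against 3305 and 2106 CPM, and its genotypes overlapped (adjusted p = 0.557 by edgeR and 0.356 by DESeq2). How these genes relate to AFB3 was not tested.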
